A study of Mus musculus with 18 samples.

Results

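The lowest step of the antigen dose series compared mouse CD4+ T cells activated with peptide at 0.1 µM with the same kind of cells activated at 0.01 µM. The T cells were 5C.C7 cells, whose transgenic T cell receptor recognises a cytochrome c peptide, and came from spleen and lymph node as naive cells. Both groups spent 4 days with P13.9 cells, a fibroblast line that served as antigen-presenting cell and was loaded with the peptide pPCC, and the labelled treatments differ in peptide dose alone. Of the 18 libraries of the series, 6 enter the comparison, 3 at 0.1 µM (A, B and C) and 3 at 0.01 µM (A, B and C). The other libraries, 3 each of T cells at 1.0 µM and 10 µM, of naive CD4+ T cells and of P13.9 cells alone, are used for their levels and to estimate the spread between libraries. All 15698 named genes of the table were considered, and tests ran on the 7264 whose normalized value reached 5 in 3 or more of the 15 T cell libraries. The labels do not say whether A, B and C came from separate mice or cultures, so what the p-values measure is the spread among these samples, which may be technical.

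A T cell receptor that binds peptide on an MHC class II molecule signals through the kinases Lck and Zap70, and the amount of peptide sets how many receptors are engaged. In CD4+ T cells stronger receptor signals are known to favour the T helper 1 regulator T-bet, the product of Tbx21, and weaker signals the T helper 2 regulator GATA3. Activated T cells also take up more glucose, enlarge their protein-making machinery and change the receptors that guide their migration. The series title names T-bet and GATA3, and the first dose step asks which of these changes separate the 2 weakest signals.

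Libraries at 0.1 µM held 156941 to 443111 reads in named genes and libraries at 0.01 µM held 382380 to 733009, and a single read corresponded to 0.305 to 0.872 normalized units at 0.1 µM and to 0.167 to 0.337 at 0.01 µM. Correlations between replicates over genes were 0.913 to 0.952 at 0.1 µM and 0.948 to 0.975 at 0.01 µM. The 7 T cell marker genes, among them Cd3d, Cd3e and Lck, summed to 261 to 303 at 0.1 µM and to 156 to 171 at 0.01 µM, against 2.65 to 6.90 in P13.9 cells, and none was at 0 in either dose group. Cd3g alone went against the sum, with means of 6.28 at 0.1 µM and 7.27 at 0.01 µM. Lck (88.5 against 43.2) and Cd3d (84.7 against 47.6) were the largest parts of it. Myeloid markers summed to 1.74 to 4.56 at 0.1 µM and 5.36 to 9.11 at 0.01 µM. Markers of CD8 T and NK cells summed to 0 to 2.07 at 0.1 µM and 0 to 0.232 at 0.01 µM. Those of red cells summed to 1.24 to 10.1 at 0.1 µM and 0.167 to 1.35 at 0.01 µM. Of a short list of 5 B cell markers, 1 was in the table, Pax5. It was listed at 0 in all 0.1 µM libraries, at 0.696 to 1.17 in those at 0.01 µM and at 0 to 3.54 in P13.9 cells. A longer B cell list had 5 genes in the table, of which 3 were tested and 0 called (1 rose and 1 fell in the fit of activated libraries described below). Its sum went the other way, at 14.5 to 18.3 at 0.1 µM and 11.8 to 13.1 at 0.01 µM. Sample numbers in the labels place 0.1 and 10 µM in one range and 0.01 and 1.0 µM in another. What these numbers record is not stated, and number range and dose cannot be told apart for this step. Levels at 1.0 µM, from the same range as 0.01 µM, are given beside some of the genes below. For the other genes no such level is given.

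Transcripts of the presenting cells were less abundant at 0.1 µM. For each library a P13.9 transcript share was computed: the value over the mean of the P13.9 libraries, as the median of 6 fibroblast genes such as the matrix genes Sparc, Col1a2 and Fn1. It was 5.40, 7.93 and 6.25% in libraries A, B and C at 0.1 µM, against 21.4, 26.4 and 23.9% at 0.01 µM, and the groups did not overlap. The mean difference was -17.4 percentage points (6.53 ± 1.29% at 0.1 µM and 23.9 ± 2.50% at 0.01 µM, SD, n = 3 each; exact two-sided permutation p = 0.1, the smallest that 3 against 3 libraries allow). Over 74 genes with no read in naive cells the share was 7.43 ± 1.84% at 0.1 µM and 23.7 ± 3.03% at 0.01 µM (n = 3 each), a difference of -16.3 points (exact two-sided permutation p = 0.1). By the fibroblast genes the share was 4.48% at 1.0 µM and 1.33% at 10 µM, but naive T cells also had 4.52% (2.67 to 5.91% by library). By this measure 1.0 and 10 µM thus lay below naive cells, and 0.1 µM at 6.53% was little above them. The 74 genes, which read 0 in naive cells by their choice, gave 5.25% at 1.0 µM and 2.76% at 10 µM. The level also depends on the summary. As a mean over the 6 genes it was 38.6 ± 11.2% at 0.1 µM and 65.2 ± 7.52% at 0.01 µM (n = 3 each), and over the 74 genes 11.6 ± 1.68% and 28.7 ± 3.34%. In these bulk samples fewer P13.9 cells and less RNA per P13.9 cell cannot be told apart, and the same holds for every T cell gene below. The P13.9 mean is therefore given beside each gene that was lower at 0.1 µM.

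**Figure D1:**
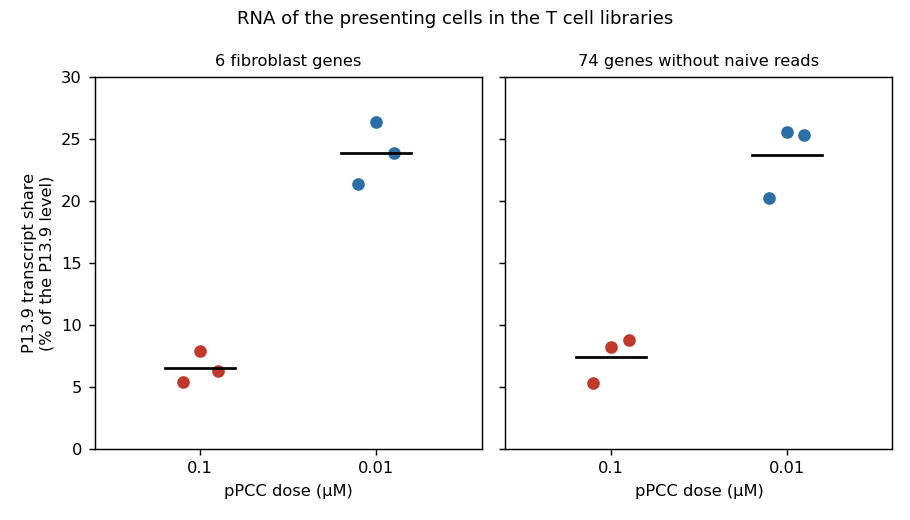
P13.9 transcript share of each library at 0.1 µM and 0.01 µM, in percent of the P13.9 level, by 6 fibroblast genes and by 74 genes without naive reads. Points are libraries and bars are means. Every 0.1 µM library lay under 9% and every 0.01 µM library above 20%.

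Of the 7264 genes tested, 406 were called between 0.1 and 0.01 µM (5.59%; limma, Benjamini-Hochberg adjusted p below 0.05). Of these 158 were higher at 0.1 µM (2.18% of genes tested) and 248 lower (3.41%). Which direction had more calls depended on the processing. Higher genes outnumbered lower ones with edgeR (917 against 846), with DESeq2 (872 against 671), with the P13.9 share subtracted (317 against 257), for genes averaging 20 or more (163 against 86) and without 0.01 µM C (72 against 58). The median log2 change over all genes tested was -0.05. Over the 1438 genes averaging 20 or more it was 0.165, and the 163 higher genes there are a larger share than 158 of 7264. For lists of abundant transcripts the 2.18% of all genes is therefore a low comparison. In this fit the 15 T cell libraries share 1 estimate of the spread, which takes in the shallow naive libraries. In a fit of the 12 activated libraries alone 1661 genes were called (22.9%), 773 higher (10.6%) and 888 lower (12.2%), and both counts are given for each gene group described, to be read against these shares. Leaving out 1 library lowered the count of 406 in each of the 6 cases, to 147 without 0.1 µM A, 119 without 0.1 µM B, 223 without 0.1 µM C, 98 without 0.01 µM A, 88 without 0.01 µM B and 130 without 0.01 µM C. P13.9 cells held more than the 0.01 µM mean for 173 of the 248 lower genes (69.8%), and as much or less for 75 (30.2%). Among all genes tested 51.7% had the higher P13.9 mean, and among the 158 higher genes 34.8%.

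**Figure D2:**
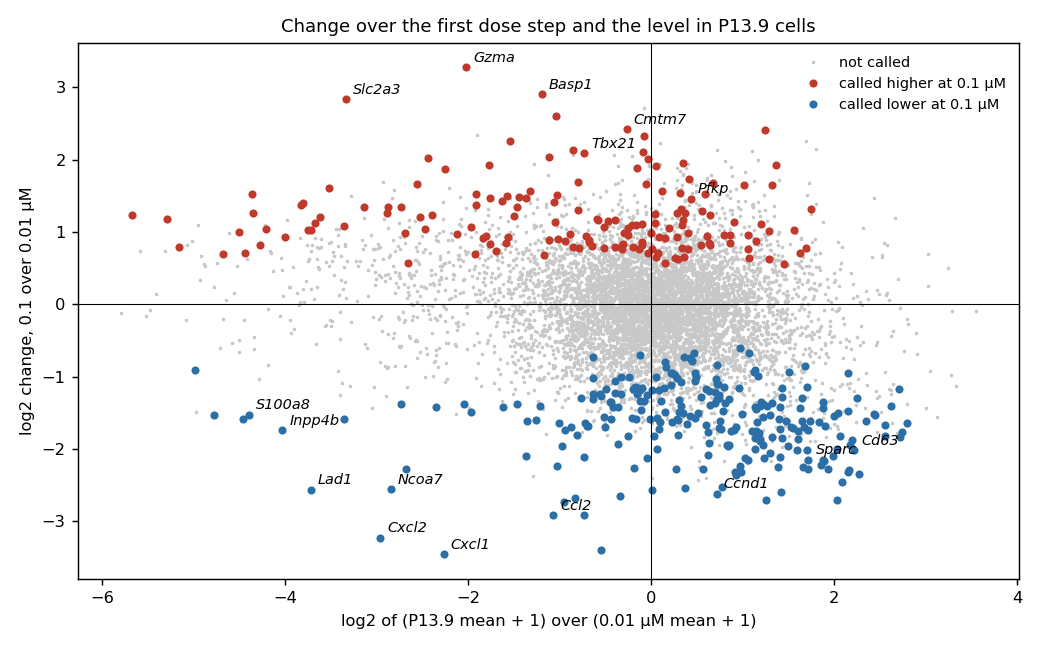
Log2 change at 0.1 against 0.01 µM (vertical axis) against the log2 ratio of the P13.9 mean to the 0.01 µM mean (horizontal axis), 1 point per gene tested, with called genes coloured. Of the 248 genes called lower, 173 lie right of 0, where P13.9 cells held more than the 0.01 µM libraries, and 75 lie at or left of it.

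Genes of the T helper 1 program were the first group examined. Tbx21, on chromosome 11 at 97098007 to 97115331 (mm10), held 9.76, 5.23 and 8.70 in the 0.1 µM libraries, against 1.17, 0.927 and 1.01 in the 0.01 µM libraries. All 3 libraries at 0.1 µM stood above all 3 at 0.01 µM, by 7.61-fold in the mean and by a log2 change of 2.09 ± 0.38 (SE, n = 3 per group; limma adjusted p = 0.00728). Cxcr3, a chemokine receptor gene that T-bet activates, held 5.79, 2.61 and 4.97 at 0.1 µM, against 0.167, 0 and 0 at 0.01 µM. Behind these values are 34 reads for 0.1 µM against a single read for 0.01 µM, which per unit of depth is a ratio of 65.8 (exact 95% counting interval 11.04 to 2676; limma adjusted p = 0.00213). Both genes were also above the 0.01 µM level at 1.0 µM, with 9.72 for Tbx21 and 6.31 for Cxcr3, and P13.9 cells held 0.223 of Tbx21 and no read of Cxcr3.

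Of 13 members of the T helper 1 list tested, 3 rose (23.1%, beside 2.18% of all genes), none fell and 10 did not pass. In the fit of activated libraries 7 rose (10.6% of all genes did), 1 fell and 5 did not pass. The list's median log2 change was 0.60. The third called member was Bhlhe40, a transcription factor gene that restrains interleukin-10, with 58.2, 40.1 and 48.5 at 0.1 µM and 19.8, 24.1 and 32.0 at 0.01 µM (log2 change 0.93 ± 0.24, adjusted p = 0.0377). Bhlhe40 stayed called with 0.01 µM C left out, and not with 0.1 µM A, B or C (adjusted p = 0.144, 0.0663 and 0.0883) or 0.01 µM A or B (0.167 and 0.129) left out, nor with quantile scaling (0.0585). Il12rb1, a chain of the interleukin-12 receptor, and Irf1, an interferon-induced transcription factor gene, did not pass the main fit and passed in that of activated libraries, with log2 changes of 1.32 (adjusted p = 0.00527 there and 0.340 in the main fit) and 0.60 (0.00450 there and 0.0888 in the main fit). The member that was lower there was the chemokine gene Ccl4 at -1.40 (adjusted p = 0.00742, and 0.0711 in the main fit), with a mean of 2.35 at 0.1 µM and 7.21 at 0.01 µM beside a P13.9 mean of 6.74. Ifng itself had 1 read at 0.1 µM and 6 reads at 0.01 µM and did not reach the minimum for testing.

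Gata3, the regulator on the T helper 2 list, held 61.6, 73.2 and 78.3 at 0.1 µM, against 86.2, 74.9 and 83.7 at 0.01 µM, and the groups overlapped (log2 change -0.20 ± 0.21, adjusted p = 0.685, and 0.407 in the fit of activated libraries). Maf, which drives Il4 expression, also overlapped between the groups, at 15.8 ± 2.47 for 0.1 µM and 18.9 ± 3.80 for 0.01 µM. Il13, a cytokine gene of T helper 2 cells, held 15.5, 19.2 and 8.70 at 0.1 µM, against 38.0, 29.7 and 36.4 at 0.01 µM, beside a P13.9 mean of 3.79. All 3 of its libraries at 0.1 µM lay under those at 0.01 µM, but the log2 change of -1.26 ± 0.43 did not pass (adjusted p = 0.107, and 0.0259 in the fit of activated libraries). Of 8 members tested the only one called (1 rose and 1 fell in the fit of activated libraries) was Nfil3, a transcription factor gene active in several helper cell types, which was higher. It held 33.8, 41.8 and 31.5 at 0.1 µM, against 12.1, 9.51 and 12.5 at 0.01 µM (log2 change 1.57 ± 0.32, adjusted p = 0.0140), and its call was lost without 0.1 µM B (0.0671) and without 0.01 µM A or B (0.0511 and 0.0738). None of 7 follicular helper genes was called by limma, and 2 were lower in the fit of activated libraries. Of 5 genes linked to T helper 17 cells 2 fell (3 in the fit of activated libraries) and none rose. They were Ccl20, which is described with the chemokines below, and Tmem176a, a membrane protein gene. Tmem176a held 7.93, 6.97 and 8.70 at 0.1 µM, against 15.7, 21.8 and 29.4 at 0.01 µM, with a P13.9 mean of 52.6 (log2 change -1.36 ± 0.37, adjusted p = 0.0452). Its call was lost with any 1 library left out (adjusted p up to 0.188) and once the part due to P13.9 cells was subtracted, where the log2 change of -1.26 was about as large (0.123).

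The granule protease genes Gzma and Gzmb carried some of the largest rises. Gzma, on chromosome 13 at 113093824 to 113100981, held 74.1, 88.9 and 102 at 0.1 µM, against 8.71, 8.35 and 7.42 at 0.01 µM. Every 0.1 µM library was above every 0.01 µM library, with a 10.8-fold difference in the means and a log2 change of 3.28 ± 0.34 (adjusted p = 0.000107). Gzmb held 27.4, 26.1 and 24.9 at 0.1 µM, against 2.51, 4.40 and 3.71 at 0.01 µM, again without overlap (7.38-fold in the means, adjusted p = 0.0134). The Gzmb call was lost without 0.1 µM B (adjusted p = 0.0541) and without 0.01 µM A (0.0630). Means in naive cells were 26.5 for Gzma and 19.7 for Gzmb, and at 1.0 µM they were 91.5 and 19.0. With activated libraries alone 2 of 7 granule genes rose and 2 fell. The other 5 tested did not pass the main fit, among them Srgn, the gene of the granule proteoglycan serglycin, at -0.23 (adjusted p = 0.691). Below the minimum for testing, the granule genes Nkg7 and Ctsw had 4 and 3 reads at 0.1 µM and 0 at 0.01 µM. Prf1 and Gzmc went the other way, with means of 0.429 and 0.545 at 0.1 µM and 0.505 and 1.38 at 0.01 µM. Cd8b1, a CD8 T cell marker, had 9 reads at 0.1 µM and 1 at 0.01 µM, and Cd8a had 0 at both. The part of CD8 T or NK cells in the granule gene rises was not tested.

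Among genes of the T cell receptor complex and its kinases, 3 of 24 rose (12.5%, beside 2.18% of all genes), 1 fell (4.17%, beside 3.41%) and 20 did not pass, with a median log2 change of 0.63. Over activated libraries alone 11 rose (10.6% of all genes did), 2 fell and 11 did not pass. Lck held 95.4, 89.8 and 80.3 at 0.1 µM, against 46.6, 49.4 and 33.7 at 0.01 µM (log2 change 1.03 ± 0.19, adjusted p = 0.00728). Zap70, the kinase recruited to the activated receptor, and Skap1, an adaptor that couples the receptor to integrins, rose by 1.04 ± 0.27 (adjusted p = 0.0377) and 0.93 ± 0.25 (adjusted p = 0.0423). Ptprc, the gene of the phosphatase CD45, which activates Lck, was lower, with 29.6, 22.7 and 26.9 at 0.1 µM, against 54.6, 48.2 and 48.2 at 0.01 µM and a P13.9 mean of 0.626 (log2 change -0.91 ± 0.25, adjusted p = 0.0445). For Zap70, Skap1 and Ptprc the call was lost with any 1 of the 6 libraries left out, with adjusted p up to 0.145, 0.165 and 0.185. After subtraction of the P13.9 share and rescaling, Lck kept its call at 0.80 (adjusted p = 0.0279), Zap70 had 0.84 (0.0710) and Skap1 0.70 (0.123). With quantile scaling Skap1 had 0.79 (0.0659). Trat1, an adaptor that stabilises the receptor complex, held 14.6, 10.5 and 13.3 at 0.1 µM, against 40.4, 34.3 and 37.4 at 0.01 µM and a P13.9 mean of 0.223. It passed in the fit of activated libraries (-1.49, adjusted p = 0.00194) and not in the main fit (adjusted p = 0.0604).

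Of 23 cytokine receptors and feedback genes tested, 1 rose (4.35%, beside 2.18% of all genes), 2 fell (8.70%, beside 3.41%) and 20 did not pass. Among activated libraries alone 3 rose and 4 fell. These shares are near those of all genes. Il2rb, a signalling chain of the interleukin-2 and interleukin-15 receptors, held 205, 121 and 134 at 0.1 µM, against 80.6, 79.8 and 64.1 at 0.01 µM (log2 change 0.99 ± 0.24, adjusted p = 0.0290). Its call was lost without 0.1 µM A or C (adjusted p = 0.121 and 0.0536), without 0.01 µM A, B or C (0.0775, 0.0872 and 0.116) and, at similar log2 changes of 0.75 and 0.76, with the P13.9 share subtracted (0.0593) and with quantile scaling (0.0644). Socs2, an inhibitor of cytokine signalling, held 3.35, 4.36 and 5.80 at 0.1 µM, against 18.6, 14.8 and 14.5 at 0.01 µM and a P13.9 mean of 9.33 (log2 change -1.64 ± 0.31, adjusted p = 0.00912, and 0.0549 without 0.01 µM A). Its relative Socs1 averaged 4.90 ± 1.59 at 0.1 µM and 14.1 ± 0.733 at 0.01 µM, beside a P13.9 mean of 1.26 (log2 change -1.39 ± 0.37, adjusted p = 0.0423). The Socs1 call was lost with any 1 of the 6 libraries left out (adjusted p up to 0.172). At 1.0 µM the means were 7.02 for Socs2 and 3.46 for Socs1. Socs1 did not stay low along the series, with a mean of 12.2 at 10 µM, close to its 14.1 at 0.01 µM.

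Among receptors and integrins that guide T cells to tissues, 7 of 17 tested rose (41.2%, beside 2.18% of all genes), none fell and 10 did not pass, with a median log2 change of 0.84. In the fit of activated libraries 11 rose and none fell. Itgb7, the beta chain of gut-homing integrins, held 26.2, 29.6 and 29.0 at 0.1 µM, against 9.38, 11.8 and 7.76 at 0.01 µM (log2 change 1.47 ± 0.27, adjusted p = 0.00871). Its alpha partner Itga4 held 8.54, 5.23 and 5.80 at 0.1 µM, against 2.68, 1.16 and 1.35 at 0.01 µM (log2 change 1.48 ± 0.38, adjusted p = 0.0349). Selplg, the ligand by which lymphocytes bind selectins, rose by 1.26 ± 0.26 (adjusted p = 0.0146), and Cxcr4, the receptor for the chemokine CXCL12, by 1.93 ± 0.42 (adjusted p = 0.0176). Cxcr4 varied most between the 0.1 µM libraries, with 29.9 in A, 8.72 in B and 13.3 in C, against 3.68, 3.48 and 2.70 at 0.01 µM. Klf2, a transcription factor of circulating T cells, and its target S1pr1, the receptor that lets T cells leave lymphoid tissue, rose by 1.52 ± 0.39 (adjusted p = 0.0354) and 0.98 ± 0.27 (adjusted p = 0.0470). Both were far higher in naive cells, with means of 139 and 128, than at 0.1 µM, with 12.1 and 11.8, or at 0.01 µM, with 3.73 and 5.46. The calls of Itga4 and S1pr1 were lost with any 1 library left out (adjusted p up to 0.146 and 0.205). That of Selplg was lost without 0.1 µM A or 0.01 µM C (0.0666 and 0.0690), that of Cxcr4 without 0.1 µM A or 0.01 µM A, B or C (0.0794, 0.0583, 0.0705 and 0.0721). Klf2 lost its call with 0.1 µM A, B or C (0.131, 0.0663 and 0.0856) and with 0.01 µM A or B left out (0.149 and 0.138). After the same subtraction S1pr1 had 0.77 (adjusted p = 0.0874).

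Genes that prepare and present antigen on MHC class I were higher at 0.1 µM where they passed. Of 17 genes of the immunoproteasome and MHC class I tested, 8 rose (47.1%, beside 2.18% of all genes), none fell and 9 did not pass, with a median log2 change of 0.85. Over activated libraries alone 9 rose (10.6% of all genes did) and 1 fell. With quantile scaling 4 rose and none fell. Tap1, a subunit of the transporter that carries peptides to class I molecules, held 79.3, 107 and 77.9 at 0.1 µM, against 31.3, 32.0 and 32.7 at 0.01 µM (log2 change 1.42 ± 0.19, adjusted p = 0.00120). The immunoproteasome subunit genes Psmb10 and Psmb8 averaged 47.0 ± 5.90 and 122 ± 10.6 at 0.1 µM, against 20.2 ± 2.12 and 57.8 ± 3.82 at 0.01 µM (adjusted p = 0.0256 and 0.0401). Psme1, a proteasome activator subunit, and B2m, the light chain of class I molecules, rose by 1.10 ± 0.26 (adjusted p = 0.0283) and 0.84 ± 0.23 (adjusted p = 0.0460). With quantile scaling B2m had 0.43 (adjusted p = 0.296) and Psmb8 0.82 (0.0627), and with the P13.9 share subtracted B2m had 1.30 (0.00838). The remaining 3 called members encode class I heavy chains, whose near-identical copies could share reads, and are only counted here. The calls of Psmb8, Psme1 and B2m were lost with any 1 library left out (adjusted p up to 0.156, 0.114 and 0.181), and that of Psmb10 without 0.1 µM A or B or 0.01 µM A, B or C (0.0783, 0.107, 0.104, 0.0787 and 0.0721). Of 16 interferon-stimulated genes outside this pathway 1 rose, Ly6e at 0.97 ± 0.26 (adjusted p = 0.0399, up to 0.170 with any 1 library left out, and 0.145 with quantile scaling), none fell and 15 did not pass (1 rose and 1 fell in the fit of activated libraries), and the median was -0.09. Psmb8 and Ly6e were no longer called after that subtraction (0.89, adjusted p = 0.0700, and 0.79, adjusted p = 0.100).

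**Figure D3:**
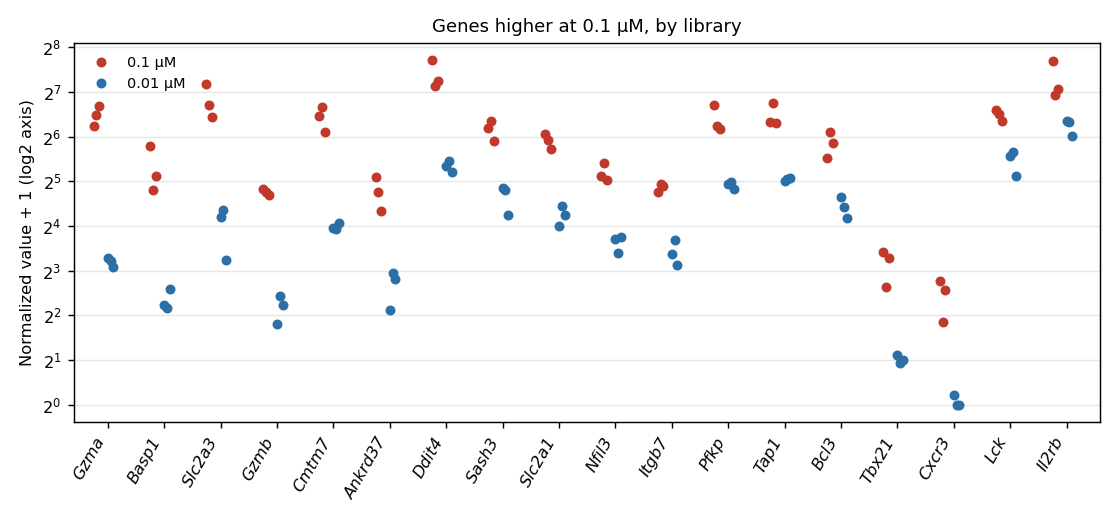
Normalized values plus 1 of 18 genes called higher at 0.1 µM, on a log axis, with 0.1 µM libraries and 0.01 µM libraries as separate points. For Gzma the values before adding 1 lie at 74.1 to 102 at 0.1 µM and at 7.42 to 8.71 at 0.01 µM.

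Genes of glucose uptake and glycolysis were higher at 0.1 µM: 9 of 21 tested rose (42.9%, beside 2.18% of all genes), none fell and 12 did not pass. All 21 had a positive log2 change, with a median of 1.31, and in the fit of activated libraries 18 rose. The glucose transporter gene Slc2a3 held 143, 104 and 85.3 at 0.1 µM, against 17.4, 19.5 and 8.43 at 0.01 µM, beside 0.593 in P13.9 cells (log2 change 2.84 ± 0.47, adjusted p = 0.00437). Slc2a1, another glucose transporter gene, held 65.9, 59.3 and 51.8 at 0.1 µM, against 14.9, 20.9 and 17.9 at 0.01 µM (log2 change 1.67 ± 0.25, adjusted p = 0.00224). Pfkp, a phosphofructokinase that commits glucose to glycolysis, held 103, 75.0 and 70.8 at 0.1 µM, against 29.5, 30.8 and 27.3 at 0.01 µM (log2 change 1.46 ± 0.18, adjusted p = 0.000678). The groups did not overlap for any of these. Means at 1.0 µM were 109 for Slc2a3, 60.2 for Slc2a1 and 82.9 for Pfkp, the last equal to the 0.1 µM mean of 82.9. Hypoxia-inducible factors, which activate many glycolysis genes, bind the letters ACGTG or GCGTG. The 250 bases before the annotated start of Slc2a1 (chr4:119108495-119108744, plus strand) and of Pfkp (chr13:6648772-6649021, minus strand), from RefSeq on GRCm38.p6, are shown because these genes had the smallest adjusted p of the group, with these letters on either strand in capitals.
Slc2a1: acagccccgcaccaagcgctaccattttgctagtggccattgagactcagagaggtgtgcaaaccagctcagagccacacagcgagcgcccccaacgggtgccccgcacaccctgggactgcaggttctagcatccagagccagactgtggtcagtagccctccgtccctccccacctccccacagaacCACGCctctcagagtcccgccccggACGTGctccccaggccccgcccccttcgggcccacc
Pfkp: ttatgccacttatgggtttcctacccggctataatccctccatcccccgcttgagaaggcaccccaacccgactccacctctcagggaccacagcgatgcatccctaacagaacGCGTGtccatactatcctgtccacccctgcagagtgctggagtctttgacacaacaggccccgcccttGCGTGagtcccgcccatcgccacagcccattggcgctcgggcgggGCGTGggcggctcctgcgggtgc
Such letters stood in the promoter windows of 5 of the 8 called glycolysis genes with a window in the table and in 38.6% of all 32851 windows of the same length, and a match of this kind is a description and no evidence of binding.

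Further along the pathway, Mif, a cytokine gene placed on this list for its induction with glycolysis, rose by 1.27 ± 0.23 (adjusted p = 0.00722). Pkm, the pyruvate kinase of the last step, held 230, 193 and 176 at 0.1 µM, against 81.2, 92.3 and 66.8 at 0.01 µM (log2 change 1.31 ± 0.27, adjusted p = 0.0146). Tpi1, triose phosphate isomerase, and Gpi1, which converts glucose-6-phosphate, rose by 1.54 ± 0.37 (adjusted p = 0.0288) and 1.12 ± 0.26 (adjusted p = 0.0263), and Pdk1, which keeps pyruvate out of mitochondria, by 1.16 ± 0.32 (adjusted p = 0.0470). The calls of Tpi1 and Pdk1 were lost with any 1 library left out (adjusted p up to 0.115 and 0.191). That of Pkm was lost without 0.1 µM A or B or 0.01 µM A or C (0.0664, 0.0543, 0.0559 and 0.0690), and that of Gpi1 without 0.1 µM A or 0.01 µM A, B or C (0.113, 0.0899, 0.0738 and 0.0988). Ldha, lactate dehydrogenase, held 393, 307 and 309 at 0.1 µM, against 110, 119 and 157 at 0.01 µM, and Slc16a3, which exports lactate, 39.6, 17.4 and 21.5 at 0.1 µM, against 3.35, 5.33 and 3.71 at 0.01 µM. Neither passed the main fit (adjusted p = 0.0810 and 0.0626) and both passed in the fit of activated libraries (0.000574 and 0.00104). Gpi1 rose by 1.89 once the P13.9 share was subtracted (adjusted p = 0.000995). Several of these genes, such as Mif, have processed pseudogenes that could share their reads.

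Hypoxia-response genes outside glycolysis were divided. Of 19 tested 2 rose, 2 fell and 15 did not pass, and in the fit of activated libraries 8 rose and 2 fell, with a median of 0.65. Ddit4, an inhibitor of the growth kinase complex mTORC1, held 209, 139 and 150 at 0.1 µM, against 39.7, 42.7 and 36.1 at 0.01 µM (log2 change 2.03 ± 0.45, adjusted p = 0.0202). Ankrd37, a known target of hypoxia-inducible factor, held 33.2, 26.1 and 19.1 at 0.1 µM, against 3.35, 6.72 and 6.07 at 0.01 µM (log2 change 2.10 ± 0.55, adjusted p = 0.0404). Hif1a, the gene of the factor's oxygen-regulated subunit, was lower, with 15.2, 18.3 and 24.4 at 0.1 µM, against 34.7, 43.1 and 45.2 at 0.01 µM and a P13.9 mean of 30.9 (log2 change -1.06 ± 0.25, adjusted p = 0.0283). Car9, a carbonic anhydrase gene, averaged 2.35 ± 0.726 at 0.1 µM and 13.1 ± 2.08 at 0.01 µM beside a P13.9 mean of 54.9 (adjusted p = 0.0295). Subtraction of the P13.9 share left Car9 at -0.86 (adjusted p = 0.245) and Hif1a at -1.21 (adjusted p = 0.0128). The calls of Ankrd37 and Car9 were lost with any 1 library left out (adjusted p up to 0.162 and 0.117). Those of Ddit4 and Hif1a were lost in 5 of 6 cases each, in all but that without 0.1 µM C (up to 0.0840 and 0.113, both without 0.1 µM A).

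Genes of protein synthesis did not move as one. Of 39 cytosolic ribosomal protein genes tested, 14 rose (35.9%, beside 2.18% of all genes), none fell and 25 did not pass and the median log2 change was 0.57. Among activated libraries alone 16 rose, beside 10.6% of all genes, and none fell. Most of these genes have near-identical copies elsewhere in the genome that could share reads, and they are only counted here. The 14 became 3 to 13 with 1 library left out, fewest without 0.01 µM A, and 4 with quantile scaling, where the median was 0.40. Of 25 genes for Myc and nucleolar ribosome assembly, none rose, 1 fell and 24 did not pass (none rose and 4 fell in the fit of activated libraries), and the median was -0.17. The one called was Ncl, the gene of the nucleolar protein nucleolin, with 63.1, 45.3 and 54.3 at 0.1 µM, against 123, 106 and 103 at 0.01 µM and a P13.9 mean of 135 (log2 change -1.02 ± 0.20, adjusted p = 0.0111; 0.0582 without 0.1 µM B and 0.0592 without 0.01 µM A). Of 17 endoplasmic reticulum chaperone genes 2 fell and none rose (3 fell and 2 rose in the fit of activated libraries). Hspa5, the chaperone BiP, held 122, 100 and 113 at 0.1 µM, against 218, 242 and 201 at 0.01 µM and a P13.9 mean of 264 (log2 change -0.97 ± 0.22, adjusted p = 0.0220, up to 0.103 with any 1 library left out). Hsp90b1, its partner GRP94, averaged 30.6 ± 2.56 at 0.1 µM and 62.3 ± 5.03 at 0.01 µM, with a P13.9 mean of 64.6 (adjusted p = 0.0130; 0.0545 without 0.1 µM B, 0.0570 without 0.01 µM B and 0.0580 without 0.01 µM C). Ncl, Hspa5 and Hsp90b1 kept their calls after that subtraction, at -1.08, -1.02 and -1.09, and with quantile scaling Hspa5 had -1.49.

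Mitochondrial and cell cycle genes gave few calls in the main fit. Of 48 respiratory chain and ATP synthase genes 1 rose, none fell and 47 did not pass (18 rose and 2 fell in the fit of activated libraries), with a median of 0.27. The 1 was Cox6a1, a cytochrome c oxidase subunit, with 124, 129 and 127 at 0.1 µM, against 77.2, 75.3 and 79.6 at 0.01 µM (log2 change 0.70 ± 0.16, adjusted p = 0.0259, up to 0.103 with any 1 library left out and 0.176, at 0.46, with quantile scaling). Of 31 S phase genes 1 rose, 1 fell and the other 29 missed the threshold, against 9 higher and 1 lower over activated libraries alone. Mcm3, a subunit of the replication helicase, held 77.4, 75.8 and 76.6 at 0.1 µM, against 49.2, 47.3 and 45.2 at 0.01 µM (log2 change 0.69 ± 0.18, adjusted p = 0.0406), and had 0.56 after that subtraction (adjusted p = 0.0887) and 0.50 with quantile scaling (0.124). Pola1, the catalytic subunit of the polymerase that starts DNA strands, held 5.79, 0 and 1.24 at 0.1 µM, against 11.7, 9.74 and 10.8 at 0.01 µM and a P13.9 mean of 4.75 (log2 change -2.24 ± 0.52, adjusted p = 0.0249, and 0.0638 with the 6 libraries alone). Of 26 mitosis genes 1 rose and none fell (5 rose and 2 fell in the fit of activated libraries). It was Ube2c, which helps degrade cyclins at mitotic exit, at 0.97 ± 0.25 (adjusted p = 0.0349, and 0.0534 after that subtraction, at a similar log2 change of 0.89). The calls of Mcm3 and Ube2c were lost with any 1 library left out (adjusted p up to 0.132 and 0.154), and that of Pola1 in 5 of 6 cases (up to 0.105), the exception being without 0.1 µM A. Of 14 cholesterol synthesis genes 1 rose, Srebf2, a regulator of the pathway, with 112, 116 and 91.9 at 0.1 µM, against 56.9, 46.4 and 38.8 at 0.01 µM (adjusted p = 0.0295, up to 0.122 with any 1 library left out). In the fit of activated libraries 3 of the 14 rose and 3 fell. None of 18 amino acid transport and one-carbon genes and none of 15 BCL2 family and death genes was called by limma. Over activated libraries alone 1 rose and 2 fell among the first and none rose and 3 fell among the second.

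Other large rises were those of 5 genes of varied roles. Basp1, which binds the inner face of the plasma membrane, held 54.3, 27.0 and 33.5 at 0.1 µM, against 3.68, 3.48 and 5.06 at 0.01 µM (log2 change 2.91 ± 0.36, adjusted p = 0.000678). Cmtm7, a membrane protein gene of lymphocytes, held 87.2, 100 and 67.5 at 0.1 µM, against 14.4, 14.4 and 15.9 at 0.01 µM (log2 change 2.42 ± 0.24, adjusted p = 8.64e-05). Neither gene overlapped between the doses, and at 1.0 µM their means were 52.9 and 90.3. Sash3, an adaptor of lymphocyte receptor signalling, Acp5, an acid phosphatase gene, and Rps6ka1, a kinase downstream of ERK, rose by 1.52 ± 0.26, 1.66 ± 0.27 and 1.70 ± 0.32 (adjusted p = 0.00485, 0.00360 and 0.00914). These 5 calls held with each of the 6 libraries left out in turn. In the actin and tubulin list 6 of 26 rose, 3 fell and 17 did not pass. With activated libraries alone 7 rose and 5 fell, and with quantile scaling 3 rose and 6 fell. Tmsb10, which binds free actin, rose by 1.34 ± 0.20 (adjusted p = 0.00224), and Coro1a, a coronin of leukocytes, by 1.26 ± 0.24 (adjusted p = 0.00991; 0.0545 without 0.1 µM B, 0.0528 without 0.01 µM A and 0.0620 without 0.01 µM B). S100a4 and S100a6, neighbouring genes of calcium-binding proteins, went opposite ways. S100a6 held 518, 470 and 378 at 0.1 µM, against 186, 238 and 242 at 0.01 µM (adjusted p = 0.0130; 0.0625 and 0.0562 without 0.1 µM A or B and 0.0692 without 0.01 µM A), a log2 change of 1.03 ± 0.21 that became 2.34 with the P13.9 share subtracted and 0.60 with quantile scaling (adjusted p = 0.121), beside a P13.9 mean of 657. S100a4 held 27.1, 44.5 and 33.1 at 0.1 µM, against 103, 150 and 148 at 0.01 µM and a P13.9 mean of 209 (log2 change -1.92 ± 0.24, adjusted p = 0.000678).

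Among the remaining regulators, 2 of 19 NF-kappa-B family and feedback genes rose and 1 fell (2 rose and 3 fell in the fit of activated libraries). Bcl3, a nuclear IkB protein gene that modulates NF-kappa-B dimers, held 44.8, 68.0 and 56.7 at 0.1 µM, against 23.9, 20.6 and 17.2 at 0.01 µM (log2 change 1.41 ± 0.25, adjusted p = 0.00613). Ltb, the gene of lymphotoxin beta, held 136, 146 and 128 at 0.1 µM, against 65.3, 60.3 and 53.0 at 0.01 µM (log2 change 1.18 ± 0.24, adjusted p = 0.0130; 0.0582 without 0.1 µM B, 0.0547 without 0.01 µM B and 0.0588 without 0.01 µM C). Nfkbiz, another nuclear IkB protein gene, needed for some inflammatory targets, held 1.52, 2.61 and 0.828 at 0.1 µM, against 8.37, 4.87 and 8.77 at 0.01 µM and a P13.9 mean of 11.7 (log2 change -1.67 ± 0.37, adjusted p = 0.0196). Of 26 immediate early genes 1 rose and 1 fell (1 and 3 in the fit of activated libraries). Junb, an AP-1 subunit, rose by 0.95 ± 0.18 (adjusted p = 0.00960), and by 0.60 with quantile scaling. The one that fell was Egr3, a target of receptor signalling, with 1.52, 0.872 and 3.31 at 0.1 µM, against 6.87, 6.26 and 5.74 at 0.01 µM and a P13.9 mean of 2.14 (log2 change -1.41 ± 0.37, adjusted p = 0.0377). The Nfkbiz call was lost without 0.1 µM A or C or 0.01 µM A or C (adjusted p up to 0.0866), and the Egr3 call in every case but that without 0.1 µM C (up to 0.176).

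Chemokine genes that recruit neutrophils and monocytes were lower at 0.1 µM. The list of these genes also holds other cytokine genes, such as Il6 and Csf2, which did not reach the minimum for testing. Of its 8 members tested none rose, 5 fell (62.5%, beside 3.41% of all genes) and 3 did not pass, and in the fit of activated libraries 7 fell. Their median log2 change was -2.92. Cxcl1, a neutrophil attractant, held 24.4, 20.9 and 22.0 at 0.1 µM, against 210, 269 and 296 at 0.01 µM, which is 11.5-fold lower (log2 change -3.46 ± 0.50, adjusted p = 0.00224), beside a P13.9 mean of 52.9. Cxcl2, which acts on the same receptor, held 22.6, 12.2 and 12.4 at 0.1 µM, against 144, 171 and 138 at 0.01 µM (log2 change -3.23 ± 0.28, adjusted p = 2.26e-05), beside a P13.9 mean of 18.4. Both stood higher at 0.01 µM than in P13.9 cells alone. Ccl2, a monocyte attractant, held 19.5, 27.0 and 37.3 at 0.1 µM, against 167, 230 and 243 at 0.01 µM, with a P13.9 mean of 101 (adjusted p = 0.0401). Ccl7, its neighbour on chromosome 11 with a like role, held 2.13, 6.10 and 7.87 at 0.1 µM, against 50.9, 63.1 and 68.5 at 0.01 µM, with a P13.9 mean of 41.3 (log2 change -3.40 ± 0.51, adjusted p = 0.00224). The Ccl2 call was lost with any 1 library left out (adjusted p up to 0.135). Ccl20, which attracts cells bearing CCR6, held 0.305, 0 and 0 at 0.1 µM, against 6.03, 7.19 and 8.77 at 0.01 µM and a P13.9 mean of 4.01 (log2 change -2.92 ± 0.23, adjusted p = 2.02e-05). Ccl20 had a single read over the 0.1 µM libraries and 93 over those at 0.01 µM, so that per unit of depth the ratio of 0.01 to 0.1 µM was 48.0 (exact 95% counting interval 8.41 to 1917).

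The P13.9 mean times the library share, a measure of how much RNA of resting presenting cells each level could hold, came to 3.93 of 22.4 at 0.1 µM and 12.5 of 258 at 0.01 µM for Cxcl1, to 1.37 of 15.7 and 4.38 of 151 for Cxcl2, and to 7.49 of 27.9 and 23.9 of 213 for Ccl2. With that amount subtracted and the values rescaled, all 5 calls remained, with log2 changes of -3.91 for Cxcl1, -3.58 for Cxcl2, -3.43 for Ccl2, -4.51 for Ccl7 and -3.07 for Ccl20. Which cells made these transcripts, and whether P13.9 cells in contact with T cells express them as P13.9 cells alone do, was not tested. At 1.0 µM the means were 21.9 for Cxcl1, 10.3 for Cxcl2 and 22.1 for Ccl2. Cxcl1, Cxcl2 and Ccl20 are classical NF-kappa-B targets, and the 250 bases before their annotated starts (RefSeq, GRCm38.p6; Cxcl1 chr5:90890995-90891244, Cxcl2 chr5:90903649-90903898 and Ccl20 chr1:83116516-83116765, all on the plus strand) are shown because these 3 genes fell together, with matches to the consensus kappa-B motif on either strand in capitals.
Cxcl1: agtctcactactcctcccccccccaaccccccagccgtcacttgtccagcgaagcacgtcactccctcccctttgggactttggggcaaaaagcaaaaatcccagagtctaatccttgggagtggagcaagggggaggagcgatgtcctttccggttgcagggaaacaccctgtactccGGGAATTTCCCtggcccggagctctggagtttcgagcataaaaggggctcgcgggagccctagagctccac
Cxcl2: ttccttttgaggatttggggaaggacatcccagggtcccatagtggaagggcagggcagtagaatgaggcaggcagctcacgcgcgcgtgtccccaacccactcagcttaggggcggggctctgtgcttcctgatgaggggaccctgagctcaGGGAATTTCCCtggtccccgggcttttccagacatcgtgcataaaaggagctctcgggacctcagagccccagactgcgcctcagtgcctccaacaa
Ccl20: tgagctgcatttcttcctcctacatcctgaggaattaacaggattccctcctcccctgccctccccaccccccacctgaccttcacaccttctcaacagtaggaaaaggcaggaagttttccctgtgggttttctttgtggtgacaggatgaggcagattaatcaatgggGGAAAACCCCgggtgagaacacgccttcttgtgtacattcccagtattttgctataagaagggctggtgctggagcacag
The motif matched in all 3 windows and in 2382 of 32851 windows of the same length (7.25%), and a match is a description of sequence and shows no binding. In Cxcl1 and Cxcl2 the same near-palindromic run matched on both strands, starting 71 and 97 bases before the start of the gene, and in Ccl20 the match lay on the other strand, starting 80 bases before it. The genes were chosen for their values, and Ccl2 and Ccl7 had no window in the table.

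Fibroblast genes were lower with the P13.9 share, which several of them define. Of 13 matrix and contractile genes tested 4 fell, 1 rose and 8 did not pass, and in the fit of activated libraries 9 fell and 2 rose. Sparc held 6.71, 6.97 and 8.70 at 0.1 µM, against 30.8, 38.5 and 40.5 at 0.01 µM, with a P13.9 mean of 123 (adjusted p = 0.00224), and it is one of the 6 genes that set the share. Ccnd1, cyclin D1, held 5.79, 10.5 and 14.5 at 0.1 µM, against 58.1, 68.4 and 67.5 at 0.01 µM, with a P13.9 mean of 107 (log2 change -2.62 ± 0.34, adjusted p = 0.000871). Cd63, a tetraspanin gene of endosomes, held 18.0, 22.7 and 32.3 at 0.1 µM, against 82.6, 105 and 110 at 0.01 µM, with a P13.9 mean of 468 (adjusted p = 0.00690). The other called members of the list were Timp2, an inhibitor of matrix proteases, and Tpm1, a tropomyosin, both lower, and the actin-binding gene Tagln2, which was higher. Timp2 averaged 5.31 ± 1.69 at 0.1 µM and 21.3 ± 6.41 at 0.01 µM with a P13.9 mean of 130 (adjusted p = 0.0176). Tpm1 averaged 6.81 ± 2.88 at 0.1 µM and 19.7 ± 1.34 at 0.01 µM with a P13.9 mean of 24.5 (adjusted p = 0.0279). Tagln2 averaged 352 ± 29.0 at 0.1 µM and 193 ± 10.8 at 0.01 µM (adjusted p = 0.0167, and 0.329 with quantile scaling). For Timp2 and Tpm1 the call held in 1 of 6 cases with a library left out and for Tagln2 in 2. Once the part due to P13.9 cells was subtracted, with negative values set to 0, Cd63 and Timp2 came to 0 in both groups. Sparc, Ccnd1 and Tpm1 remained lower at -3.24, -4.19 and -1.74 (adjusted p = 0.000243, 0.000269 and 0.0189). For Sparc this left the 0.1 µM libraries at or near 0, so the size of its change depends on that floor. Of 8 genes for MHC class II and ligands of presenting cells 3 fell and none rose (4 fell and 1 rose in the fit of activated libraries). H2-Eb1, a class II beta chain, held 1.22, 1.74 and 2.90 at 0.1 µM, against 15.7, 16.7 and 18.9 at 0.01 µM, with a P13.9 mean of 13.3 and a naive mean of 13.2 (log2 change -2.65 ± 0.40, adjusted p = 0.00245). The costimulatory genes Cd80, a ligand of CD28, and Cd40, a receptor for T cell help, averaged 2.06 ± 0.739 and 2.84 ± 2.11 at 0.1 µM, against 10.9 ± 2.97 and 9.62 ± 3.41 at 0.01 µM, with P13.9 means of 20.3 and 6.44 (adjusted p = 0.0352 and 0.0250). The Cd80 call was lost with any 1 library left out (adjusted p up to 0.128), and the Cd40 call in every case but that without 0.1 µM B (up to 0.107). It was also lost with the 6 libraries alone (0.0573).

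Cd44, the hyaluronan receptor that marks activated T cells, was also lower. It held 38.4, 38.3 and 55.1 at 0.1 µM, against 94.1, 111 and 121 at 0.01 µM, with a P13.9 mean of 63.8 (log2 change -1.30 ± 0.18, adjusted p = 0.00126). The P13.9 mean times the share was 4.74 at 0.1 µM and 15.1 at 0.01 µM, and after subtraction the change was -1.50 (adjusted p = 0.000243). The means at 1.0 and 10 µM were 38.0 and 31.6. Of the 9 costimulatory and inhibitory receptors tested, Cd44 was the one called, and in the fit of activated libraries 1 rose and 3 fell.

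**Figure D4:**
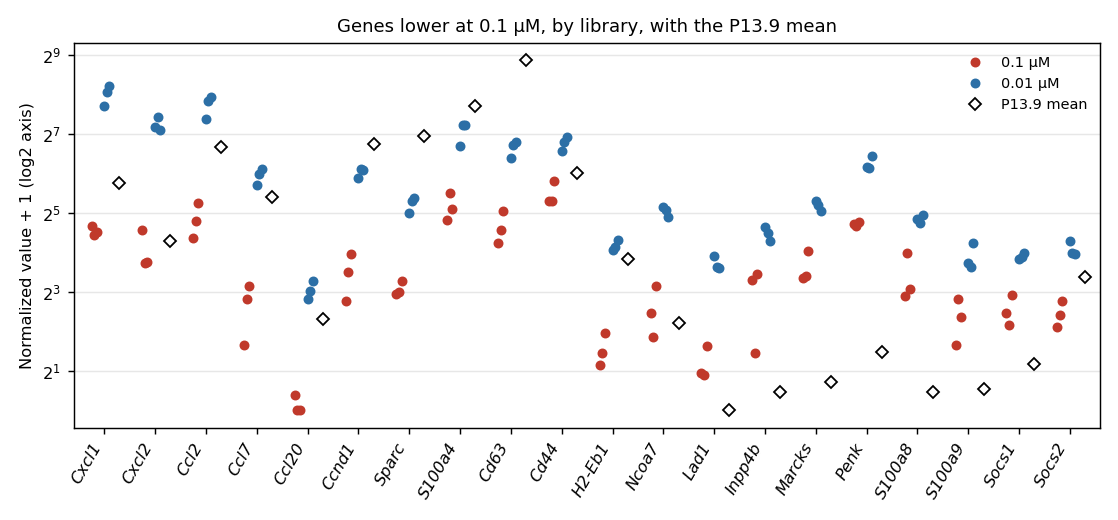
Normalized values plus 1 of 20 genes called lower at 0.1 µM, on a log axis, with 0.1 µM and 0.01 µM libraries as points and the P13.9 mean as a diamond. For Cxcl1 the 0.1 µM libraries, before adding 1, lie at 20.9 to 24.4, those at 0.01 µM at 210 to 296 and the P13.9 mean at 52.9, whereas for Cd63 the P13.9 mean of 468 lies above both groups.

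A set of 13 genes called lower (5.24% of the 248, against 6.84% of all genes tested) had a P13.9 mean of at most 0.1 times their 0.01 µM mean, so that P13.9 cells alone held little of them. Lad1, on chromosome 1 at 135818598 to 135833341 and coding for the filament protein ladinin, held 0.915, 0.872 and 2.07 at 0.1 µM, against 14.1, 11.4 and 11.1 at 0.01 µM, and was listed at 0 in P13.9 and in naive cells (log2 change -2.56 ± 0.29, adjusted p = 0.000298). Its means at 1.0 and 10 µM were 2.17 and 2.76. Lad1 thus met the minimum for testing only through the 0.01 µM libraries, where it was high, and its adjusted p does not allow for that selection. Arfgef3, a relative of exchange factors for small GTPases, held 0.305, 0.872 and 0.828 at 0.1 µM, against 7.20, 5.56 and 8.43 at 0.01 µM, with a P13.9 mean of 0.256 (adjusted p = 0.00613). Both calls held with each of the 6 libraries left out in turn. Marcks, a membrane substrate of protein kinase C, held 9.15, 9.59 and 15.3 at 0.1 µM, against 38.4, 35.9 and 32.0 at 0.01 µM, with a P13.9 mean of 0.659 (log2 change -1.59 ± 0.31, adjusted p = 0.0105; 0.0510 without 0.1 µM B, 0.0559 without 0.01 µM A and 0.0544 without 0.01 µM B). Penk, the gene of the opioid precursor proenkephalin, held 25.3, 24.4 and 26.5 at 0.1 µM, against 70.7, 69.3 and 86.4 at 0.01 µM, with a P13.9 mean of 1.78 (log2 change -1.53 ± 0.39, adjusted p = 0.0349). Inpp4b, a phosphatase of phosphoinositides, held 8.84, 1.74 and 9.94 at 0.1 µM, against 24.1, 21.6 and 18.6 at 0.01 µM, with a P13.9 mean of 0.370 (adjusted p = 0.0330). The Penk call was lost with any 1 library left out (adjusted p up to 0.127), and that of Inpp4b without 0.1 µM B or 0.01 µM A, B or C (0.106, 0.124, 0.117 and 0.0895) and with the 6 libraries alone (0.0683). In naive cells Arfgef3 had a mean of 10.9, above its 0.01 µM mean of 7.07. The naive means of Marcks, Penk and Inpp4b, at 20.8, 11.4 and 17.4, lay below their 0.01 µM means. Ncoa7, a coactivator of nuclear receptors whose P13.9 mean of 3.61 lay just above 0.1 times its 0.01 µM mean, held 4.57, 2.61 and 7.87 at 0.1 µM, against 34.8, 32.7 and 29.0 at 0.01 µM (log2 change -2.55 ± 0.44, adjusted p = 0.00570).

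Of the same 13 genes, S100a8, S100a9 and Mmp8 are known as neutrophil genes, coding for the subunits of calprotectin and for a granule collagenase. S100a8 averaged 9.56 ± 4.58 at 0.1 µM and 27.8 ± 2.15 at 0.01 µM, without overlap, with means of 483 in naive cells and 0.370 in P13.9 cells (log2 change -1.53 ± 0.30, adjusted p = 0.0127; 0.0599 without 0.1 µM A, 0.0528 without 0.01 µM A and 0.0533 without 0.01 µM C). S100a9 averaged 4.13 ± 1.98 at 0.1 µM and 13.8 ± 3.54 at 0.01 µM, with means of 339 in naive cells and 0.446 in P13.9 cells (adjusted p = 0.0315). Mmp8 held 0, 0 and 0.414 at 0.1 µM, against 1.84, 3.01 and 1.35 at 0.01 µM, with a naive mean of 12.6 and no read in P13.9 cells (adjusted p = 0.0257). The S100a9 call was lost in every case but that without 0.1 µM B (adjusted p up to 0.130), and the Mmp8 call without 0.1 µM A or B or 0.01 µM A or B (up to 0.119). The 7 myeloid markers moved the same way, at 1.74 to 4.56 in the 0.1 µM libraries, 5.36 to 9.11 in those at 0.01 µM and 66.4 to 104 in naive libraries, with 2 of the 7 at 0 throughout the 0.1 µM group. Several rest on few reads, such as Csf1r with 0 at 0.1 µM and 6 at 0.01 µM and Itgam with 2 and 16. A wider list of myeloid and dendritic cell markers overlapped between the doses, summing to 41.8 to 50.9 at 0.1 µM and 48.4 to 58.9 at 0.01 µM. Of its 7 tested members 0 were called, with a median log2 change of -0.59 (0 rose and 3 fell in the fit of activated libraries). Of its untested members Fcgr3 (1.13 against 1.00) and Spi1 (0.392 against 0.380) were not lower at 0.1 µM, and the others were. The part of myeloid cells in the lower genes was not tested. The remaining members were Wfdc21, Gprin3, Cd83, Socs1 and Ptprc, with P13.9 means of 0, 0.147, 0, 1.26 and 0.626. Their naive means were 42.5, 12.4, 19.6, 7.84 and 130, above the 0.01 µM mean for all but Socs1.

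**Figure D5:**
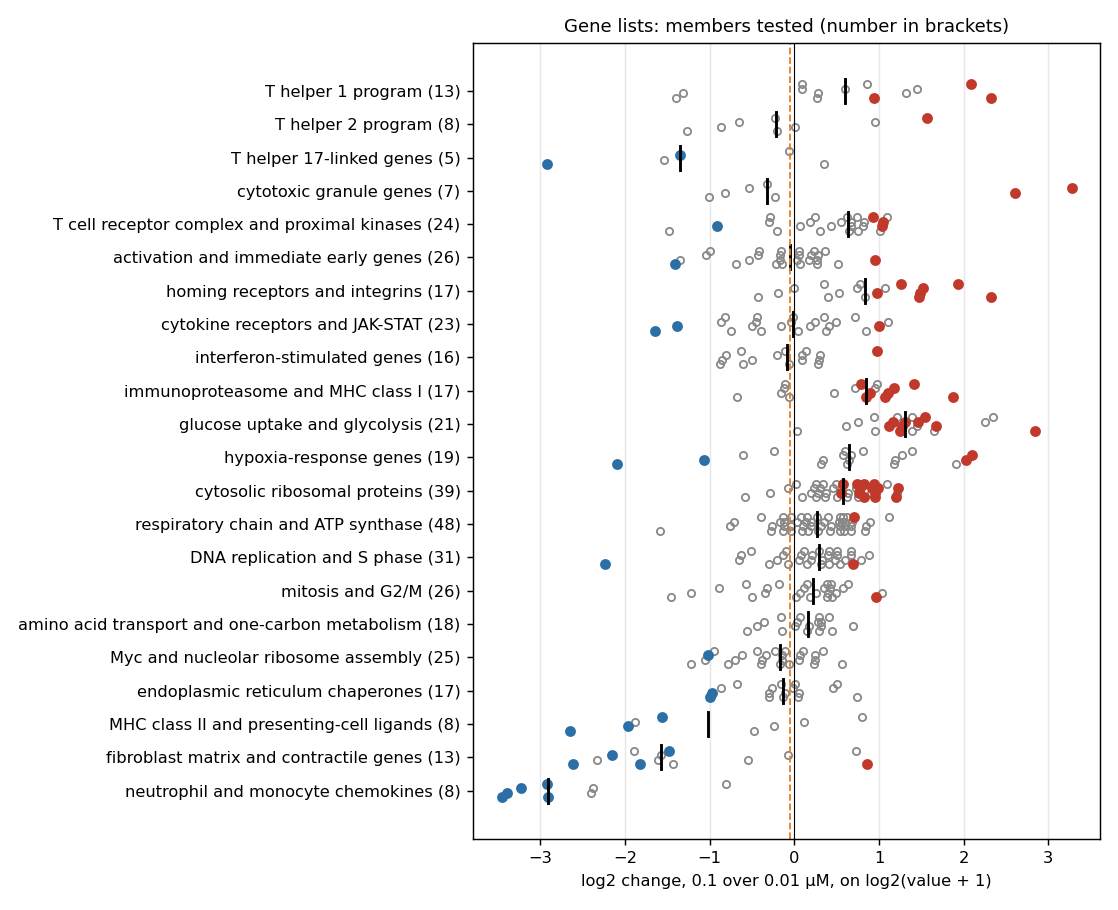
Log2 change at 0.1 against 0.01 µM of every tested member of the gene lists, 1 row per list, with called members in red (higher) or blue (lower), other members as open grey points, the list median as a black bar and the median of all genes tested as a dashed line at -0.05. All 21 glycolysis genes lie right of the line (median 1.31), as do the medians of the homing and MHC class I genes at 0.84 and 0.85, with 14 of 17 and 12 of 17 members above 0. All 8 tested members of the chemokine list lie left of it (median -2.92).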

How the data were processed

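Messenger RNA of 18 libraries was measured by 3′ sequencing (Lexogen QuantSeq on an Illumina NextSeq 500, per the labels' protocols), and samples were grouped by their titles. The authors deposited a signal per gene and library, scaled by median of ratios per the file headers. Listed in the submitters' processing notes are the build mm10 and the tools HTSeq 0.9.1, STAR 2.6.1d, FastQC 0.11.8 and DESeq2 (no version). Annotation, strand setting and the handling of reads that match several places are not given in the sources, and the totals below are of reads counted in genes, so overlapping and duplicated genes remain uncertain.

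The values are whole reads divided by 1 factor per library: 99.99965% of 284544 values were whole within 1e-05 reads, all but 1, Tbx21 in a naive library. Of 15808 features, 110 had no gene name (3.94 to 5.36% of reads at 0.1 µM and 3.61 to 4.31% at 0.01 µM) and were left out. Positions and promoter sequences are from RefSeq (GRCm38.p6), where 13863 names were found as symbols, 30 as synonyms and 1805 not at all. No columns were left unmapped. No source mentions molecular identifiers, and intervals cover counting error only.

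Log2(value + 1) was fitted with limma 3.58.1 in R 4.3.3 (lmFit, eBayes with trend) over the 15 T cell libraries, with Benjamini-Hochberg adjustment over all 7264 genes kept. Fold changes on that scale understate changes of low genes. The minimum for testing can be met by the libraries of a single group, also the one where a gene is high. Alternatives were other pseudocounts, filters, sample sets, weights and scalings, edgeR 4.0.16 and DESeq2 1.42.0 on the recovered reads, a replicate block, subtraction of the P13.9 share (by the 74 genes without naive reads) followed by rescaling, and leaving out each library. Negative values left by the subtraction were set to 0. The fitting procedure was tested on simulated data. The members and the gene lists were chosen with earlier results of these data known. Named genes were members of those lists, or among the 20 largest rises and 20 largest falls whose groups did not overlap and whose higher mean reached 20, and those shown in the text were picked after their values were seen. Ribosomal protein genes and class I heavy chains, which have near-identical copies, are counted and not named in the text. Some glycolysis genes with processed pseudogenes, such as Mif, are named. Lad1, Arfgef3, Mmp8 and the other genes with little P13.9 signal that fall outside this rule were named because their values stood out.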

Additional observations from a re-analysis of the deposited data

How the results depend on the processing

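None of the 102 called genes examined singly changed direction under any alternative run (with the share subtracted Cd63 and Timp2 came to 0), but counts of calls moved widely and so did the balance of higher and lower genes. Runs that changed only the filter, the replicate block or the other libraries in the fit keep the same difference of group means. Direction could not change in those runs. Called genes (main count 406) numbered 249 with a mean of at least 20, 1661 with 12 activated libraries, 1402 with the 6 libraries compared, 2340 with array weights, 703 with quantile scaling, 1763 with edgeR and 1543 with DESeq2. Higher genes (158) numbered 773, 664, 1082, 299, 917 and 872 in the last 6 of these settings, in that order, and 317 with the P13.9 share subtracted. Lower genes (248) numbered 86 with a mean of at least 20, then 888, 738, 1258, 404, 846 and 671, and lower genes with a P13.9 mean at or below their 0.01 µM mean (75) numbered 39, 320, 269, 477, 140, 302 and 228, and 140 with the share subtracted. Leaving out 1 library gave 88 to 223 called genes, 38 to 78 higher, 50 to 145 lower and 13 to 52 lower with low P13.9. The other counts stayed within 1.5 times. Higher genes made up 38.9% of the calls, and 65.5% with a mean of at least 20, 46.5% with 12 libraries, 52.0% with edgeR, 56.5% with DESeq2 and 55.2% with the share subtracted. The cause of these differences was not tested.

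Same-letter libraries of the 2 doses deviated together by r = 0.10 for A, -0.02 for B and -0.04 for C. Libraries of different letters gave r of -0.11 to 0.10. With 3 libraries per group these values cannot decide whether the letters mark pairs. With the letter as a replicate block 189 genes were called, 77 higher, 112 lower and 30 lower with low P13.9. Of 102 called genes examined singly, 63 kept their call with the block, 102 with 12 libraries, array weights or edgeR, 101 with DESeq2 (all but Cd83), 99 with the 6 libraries alone, 95 with a pseudocount of 5, 91 with one of 0.5, 88 with the share subtracted, 84 with quantile scaling, 76 with no filter on low values, and 39 without each of the 6 libraries in turn. A pseudocount of 5 ended the calls of Itga4, Klf2, S1pr1, Mmp8, Wfdc21, Gprin3 and Cd83, and one of 0.5, among genes in the text, those of Ptprc, Egr3, B2m, Pdk1, Ankrd37, Car9, Ccl2, Tmem176a and Cd80. With no filter, where 15397 genes enter the adjustment, the lost calls had adjusted p up to 0.0999. The P13.9 share difference ranged from -26.5 to -16.1 points by fibroblast genes and from -18.0 to -14.5 by genes without naive reads. Depth limits genes near 1 read, worth up to 0.872 at 0.1 µM.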

Other observations

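Some genes that did not pass the fit of 15 libraries passed in that of activated libraries and extend the groups above. Egln3, an oxygen sensor that is itself induced by hypoxia-inducible factor, held 83.5, 58.4 and 60.1 at 0.1 µM, against 17.8, 22.5 and 12.1 at 0.01 µM (adjusted p = 0.000865 there, and 0.177 in the fit of 15 libraries). Aldoc, an aldolase gene, averaged 15.5 ± 5.59 at 0.1 µM and 2.35 ± 0.576 at 0.01 µM (0.00288 and 0.0589). Bcl2l1, which codes for the survival protein BCL-xL, held 7.93, 8.72 and 9.53 at 0.1 µM, against 20.3, 25.7 and 17.9 at 0.01 µM, with a P13.9 mean of 13.6 (0.00233 and 0.0674). The chemokine gene Ccl9 and the growth factor gene Csf1, both acting on the monocyte lineage, averaged 9.01 ± 1.26 and 17.6 ± 8.38 at 0.1 µM, against 54.1 ± 23.8 and 90.3 ± 18.7 at 0.01 µM, with P13.9 means of 21.5 and 91.0 (0.00170 and 0.00689, and 0.0810 and 0.0743 in the fit of 15 libraries). With the P13.9 share subtracted Aldoc, Bcl2l1, Ccl9 and Csf1 also passed (0.00174, 0.0283, 0.0235 and 0.0294) and Egln3 did not (0.0898). None of these genes overlapped between the doses.

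Within the cholesterol pathway the members that passed in the fit of activated libraries were split, 3 higher and 3 lower. Fdps, farnesyl diphosphate synthase, held 13.1, 13.1 and 14.1 at 0.1 µM, against 7.70, 5.80 and 7.76 at 0.01 µM (adjusted p = 0.00452). Hmgcs1, the synthase upstream of it, held 10.4, 8.72 and 9.11 at 0.1 µM, against 18.9, 21.8 and 26.0 at 0.01 µM, with a P13.9 mean of 10.7 (adjusted p = 0.00857). In the fit of 15 libraries neither passed (adjusted p = 0.315 and 0.508).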
